A study of Mus musculus with 2 samples.

Results

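The cell cycle genes examined here were 38 of the 27032 genes counted in splenic CD11c+ cells, chosen by name as textbook markers of DNA synthesis or of division. They were kept as 2 lists throughout, 18 genes of S phase (Mcm2, Mcm3, Mcm4, Mcm5, Mcm6, Mcm7, Uhrf1, Pcna, Gins2, Cdc6, Cdc45, Rrm1, Rrm2, Tyms, Slbp, Ccne1, Ccne2 and Pclaf) and 20 genes of G2/M (Top2a, Mki67, Nusap1, Ccna2, Ccnb1, Ccnb2, Kif11, Cenpf, Cenpe, Prc1, Birc5, Cdk1, Bub1, Tpx2, Aurka, Aurkb, Ube2c, Hmmr, Plk1 and Cdc20). All 38 passed the filter on low counts in every comparison.

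Both samples came from the spleens of untreated Wild-Type mice on the C57BL/6J background, with no allele, transgene or agent in either. Cells positive for CD11c, an integrin that dendritic cells carry and some macrophages and lymphocytes share, were enriched on magnetic beads, tagged by sample and captured in BD Rhapsody microwells, where each RNA molecule receives a unique molecular identifier (UMI). There was no treated or control group, so the comparisons were between cell classes within the same 2 samples, and no source states whether the samples were 1 animal each or pools. The p-values therefore measure the spread between these samples only.

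A dividing cell copies its DNA in S phase and, after a gap, separates the copies in mitosis. S phase genes load and drive the replicative helicase, hold the polymerase on DNA and make deoxynucleotides, and many are switched on by E2F factors. G2/M genes condense and hold chromosomes, build the spindle and drive entry into and exit from mitosis. Many are repressed through CHR elements until late in the cycle, and many also carry CCAAT elements. Conventional dendritic cells (cDCs) descend from precursors that still divide in the spleen, and mature DCs and plasmacytoid DCs (pDCs) are usually held to have left the cycle.

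Cells were assigned to the first class whose gate they met. Splenic cDC1s, the cross-presenting subset, had at least 2 UMIs of Clec9a and 1 of Xcr1. DCIR2 cDC2s had at least 2 UMIs of Clec4a4, the gene of the DCIR2 receptor, and CLEC10A cDC2s had at least 2 UMIs of Clec10a and Cd209a together. Mature DCs had at least 2 of Ccr7 and 1 of Fscn1, and pDCs at least 3 of Siglech and 1 of Ccr9. The samples held 3308 and 3085 cells with 46953398 and 43137746 UMIs, shared 0 cell indices, and had a median of 11869.5 and 11241 UMIs per cell. There were 797 and 710 cDC1s, 565 and 466 DCIR2 cDC2s, 494 and 416 CLEC10A cDC2s, 147 and 187 mature DCs, and 14 and 20 pDCs, while 770 and 701 cells met no gate. Median UMIs per cell were 20185 and 21782.5 in cDC1s but between 10059 and 14180.5 in the other DC classes. Of the markers not used for gating, 5 of 7 were highest in cDC1s, 5 of 6 in pDCs and 6 of 6 in mature DCs among the 9 classes, but 1 of 5 each in DCIR2 cDC2s (Dtx1) and CLEC10A cDC2s (Mgl2). Most other cDC2 markers were higher in macrophages or lymphocytes, and the cDC2 names here stand for their gates. Over the samples of the DC classes, marker lists of other cells summed to 206 to 536 CPM for B cells, 14.1 to 109 CPM for macrophages, 27.1 to 86.2 CPM for NK cells, 0 to 36.6 CPM for T cells, 124 to 380 CPM for plasma cells, 5.20 to 72.8 CPM for erythroid cells and 0 to 95.9 CPM for neutrophils, the last highest in cDC1s of sample 1. The monocyte list also differed between the classes compared, with 110 and 90.9 CPM in cDC1s, 583 and 587 CPM in DCIR2 cDC2s, 1035 and 1159 CPM in CLEC10A cDC2s, 327 and 299 CPM in mature DCs and 1357 and 1380 CPM in pDCs. The part of these cells in the results was not tested. More than 1 gate was met by 350 and 313 cells, of which 210 and 159 met those of DCIR2 and of CLEC10A cDC2s alone and were counted as DCIR2 cDC2s.

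The promoters of 5 members are shown with their matches to 3 motifs known from promoters of S phase and G2/M genes. Of the 38 members, 32 had a promoter in the RefSeq table (GRCm38.p6). In the 250 bases before the start, the CHR letters TTTGAA were present on either strand in 7 of 17 G2/M promoters (41.2%), 2 of 15 S phase promoters (13.3%) and 16.0% of all 32851 promoters. The letters CCAAT stood in 15 of 17 G2/M promoters (88.2%), 12 of 15 S phase promoters (80.0%) and 33.8% of all. An E2F motif, TTTNNCGC, was found in 5 of 15 S phase promoters (33.3%), 1 of 17 G2/M promoters (5.88%) and 4.28% of all. In the following stretches of 150 bases, written 5′ to 3′ along the strand of the gene, capitals mark matches to these 3 motifs on either strand, and no match overlaps another. Mcm5, a helicase subunit (chr8:75109359-75109508, plus strand), had 1 E2F and 2 CCAAT matches. Rrm2, the regulated subunit of ribonucleotide reductase (chr12:24708104-24708253, plus strand), had 1 CCAAT match. Top2a, the DNA topoisomerase that untangles sister chromatids (chr11:99024190-99024339, minus strand), had 4 CCAAT matches and 1 CHR match. Ube2c, a ubiquitin-conjugating enzyme of the anaphase-promoting complex (chr2:164769779-164769928, plus strand), had 2 CCAAT matches and 1 CHR match. Cdk1, the mitotic kinase (chr10:69352913-69353062, minus strand), held 2 of each motif.
Mcm5: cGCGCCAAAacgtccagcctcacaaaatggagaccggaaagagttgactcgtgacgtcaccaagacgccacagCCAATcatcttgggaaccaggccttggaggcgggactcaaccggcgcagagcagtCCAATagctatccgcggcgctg
Rrm2: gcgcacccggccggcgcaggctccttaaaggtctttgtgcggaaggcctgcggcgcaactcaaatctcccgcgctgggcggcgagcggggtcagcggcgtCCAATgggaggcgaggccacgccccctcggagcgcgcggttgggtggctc
Top2a: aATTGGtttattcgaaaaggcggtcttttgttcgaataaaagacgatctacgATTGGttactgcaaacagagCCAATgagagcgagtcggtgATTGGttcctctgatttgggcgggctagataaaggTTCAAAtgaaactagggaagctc
Ube2c: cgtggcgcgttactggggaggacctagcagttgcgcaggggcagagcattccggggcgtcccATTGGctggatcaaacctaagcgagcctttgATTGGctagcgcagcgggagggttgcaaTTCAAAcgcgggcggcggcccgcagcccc
Cdk1: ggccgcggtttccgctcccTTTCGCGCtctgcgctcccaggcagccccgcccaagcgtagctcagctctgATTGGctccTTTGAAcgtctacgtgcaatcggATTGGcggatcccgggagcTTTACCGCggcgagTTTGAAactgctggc

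Cell cycle RNA was highest in DCIR2 cDC2s, next in cDC1s, lower in CLEC10A cDC2s and mature DCs, and lowest in pDCs. Levels are given as UMIs per 1000000 UMIs of the class (CPM) in sample 1 and sample 2. The 18 S phase genes summed to 1083 and 1255 CPM in DCIR2 cDC2s, 900 and 933 CPM in cDC1s, 568 and 605 CPM in CLEC10A cDC2s, 492 and 589 CPM in mature DCs, and 234 and 313 CPM in pDCs. Only CLEC10A cDC2s and mature DCs overlapped in this order. The 20 G2/M genes summed to 1431 and 2499 CPM in DCIR2 cDC2s, 1236 and 1218 CPM in cDC1s, 764 and 584 CPM in CLEC10A cDC2s, 375 and 825 CPM in mature DCs, and 109 and 66.9 CPM in pDCs. The 2 DCIR2 cDC2 sums lay far apart, and mature DCs spanned the CLEC10A cDC2 values. In mature DCs 1 cell held 30.3% of the G2/M UMIs of sample 1, and 1 cell held 24.1% of those of sample 2. The pDC sums rested on 21 and 19 G2/M UMIs. In these summed values, fewer cycling cells and less cell cycle RNA per cell cannot be told apart.

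**Figure D1:**
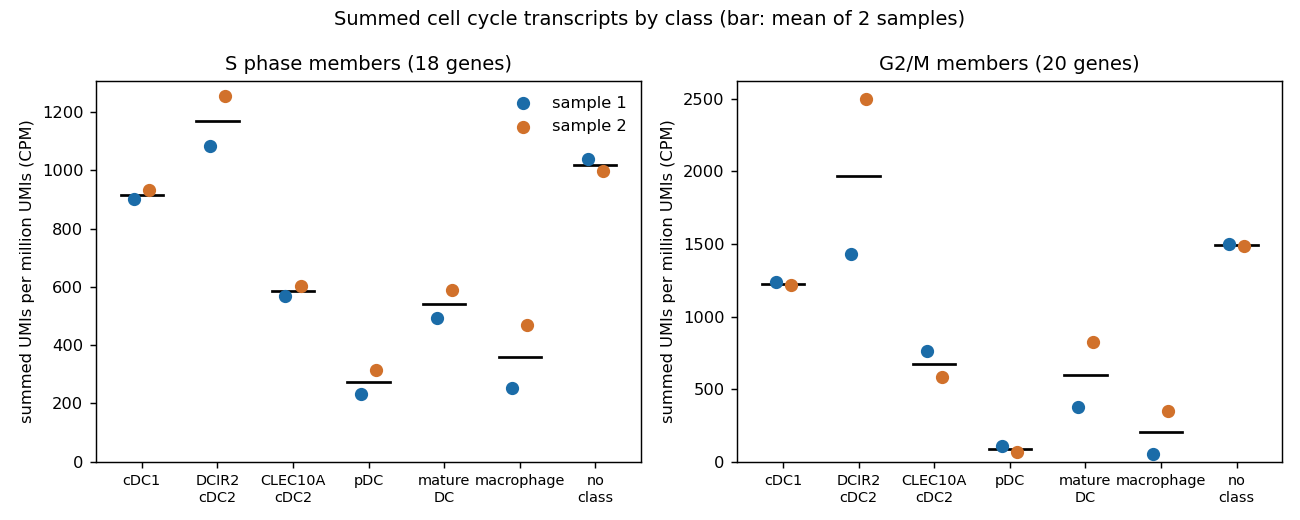
Summed level of the 18 S phase genes and of the 20 G2/M genes in CPM (y axis) in each of the 5 DC classes, macrophages and cells of no class (x axis), with 1 point per sample and a line at their mean. Among DC classes DCIR2 cDC2s stand highest in both lists, with their 2 samples at 1431 and 2499 CPM for G2/M.

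The DCIR2 cDC2s had the highest mean CPM of the 5 classes for 17 of 18 S phase members, the exception being Cdc45, and for 20 of 20 G2/M members. The same class was highest for 18.1% of all 12374 genes tested. The pDCs were lowest for 17 of 18 S phase and 19 of 20 G2/M members, against 29.2% of all genes tested. Of the G2/M members, 20 of 20 were higher in sample 2 than in sample 1 in DCIR2 cDC2s and in mature DCs, but 6 of 20 in cDC1s, 2 of 20 in CLEC10A cDC2s and 3 of 20 in pDCs.

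Among the helicase genes, Mcm2 to Mcm7 encode the ring that unwinds DNA. Mcm5 stood at 76.9 and 79.2 CPM in DCIR2 cDC2s, 69.0 and 74.0 CPM in cDC1s, 38.9 and 36.8 CPM in CLEC10A cDC2s, 35.3 and 38.8 CPM in mature DCs and 15.6 and 17.6 CPM in pDCs. Mcm4, another subunit of the ring, was at 78.6 and 73.9 CPM in DCIR2 cDC2s, 48.6 and 54.2 CPM in cDC1s, 45.2 and 42.1 CPM in CLEC10A cDC2s, 36.5 and 39.3 CPM in mature DCs and 20.8 and 59.9 CPM in pDCs, whose samples spanned those of the other classes except DCIR2 cDC2s. Cdc45 and Gins2, the partners that activate the ring, and Cdc6, which loads it, were low everywhere. Cdc45 reached 8.44 and 8.40 CPM in cDC1s against 6.10 and 7.78 CPM in DCIR2 cDC2s. Its reads cannot be separated from those of Ufd1, which overlaps it on the opposite strand, if counting ignored strand, and the same holds for Mcm7, Gins2, Ccne2, Pclaf, Nusap1, Ccna2, Prc1, Ube2c and Cdc20 and their neighbours.

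Pcna, the sliding clamp of the DNA polymerases, was at 200 and 215 CPM in DCIR2 cDC2s, 172 and 172 CPM in cDC1s, 128 and 141 CPM in CLEC10A cDC2s, 96.0 and 99.3 CPM in mature DCs and 67.6 and 70.4 CPM in pDCs. The 5 classes did not overlap for Pcna. A pseudogene, Pcna-ps2, has its own column and may share its reads. Pclaf, a small protein that binds the clamp, fell away more steeply, from 161 and 233 CPM in DCIR2 cDC2s and 150 and 139 CPM in cDC1s to 66.1 and 74.1 CPM in CLEC10A cDC2s, 46.5 and 83.4 CPM in mature DCs and 0 and 3.52 CPM in pDCs. Rrm2 was at 68.4 and 105 CPM in DCIR2 cDC2s, 65.0 and 60.6 CPM in cDC1s, 25.9 and 31.3 CPM in CLEC10A cDC2s, 19.4 and 20.3 CPM in mature DCs and 5.20 and 3.52 CPM in pDCs. Slbp, the histone mRNA binding protein, was at 58.3 and 78.6 CPM in DCIR2 cDC2s, 46.9 and 51.8 CPM in cDC1s, 44.1 and 46.0 CPM in CLEC10A cDC2s and 35.3 and 55.2 CPM in mature DCs. In pDCs its mean was 32.2 CPM (SD 20.6), from 9 and 5 UMIs. Uhrf1, which maintains DNA methylation behind the fork, departed from the order of its list in mature DCs, with 47.7 and 39.3 CPM beside 40.6 and 40.1 CPM in cDC1s.

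Among the G2/M genes, Top2a was at 331 and 579 CPM in DCIR2 cDC2s, 282 and 284 CPM in cDC1s, 180 and 142 CPM in CLEC10A cDC2s, 89.0 and 189 CPM in mature DCs and 26.0 and 14.1 CPM in pDCs. Mki67, whose product coats mitotic chromosomes, followed with 311 and 537 CPM in DCIR2 cDC2s, 255 and 264 CPM in cDC1s, 156 and 131 CPM in CLEC10A cDC2s, 96.0 and 157 CPM in mature DCs and 26.0 and 10.6 CPM in pDCs. For both genes the DCIR2 cDC2 samples were above every other sample, and that of sample 2 was far above that of sample 1. Kif11, the motor that separates the spindle poles, was at 67.4 and 117 CPM in DCIR2 cDC2s, 43.8 and 42.0 CPM in cDC1s and 36.5 and 22.4 CPM in CLEC10A cDC2s. Nusap1, a spindle microtubule protein, was at 72.6 and 126 CPM, 53.0 and 47.6 CPM, and 36.7 and 29.4 CPM in the same classes. Cdk1 differed less between the 2 highest classes, with 36.7 and 47.8 CPM in DCIR2 cDC2s and 40.4 and 41.5 CPM in cDC1s, and was at 16.6 and 13.8 CPM in CLEC10A cDC2s. Cdc20, the activator of the anaphase-promoting complex, was at 11.5 and 20.2 CPM in DCIR2 cDC2s, 15.2 and 11.8 CPM in cDC1s and 5.76 and 3.81 CPM in CLEC10A cDC2s. For Cdk1 and Cdc20 the values of DCIR2 cDC2s and cDC1s overlapped.

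**Figure D2:**
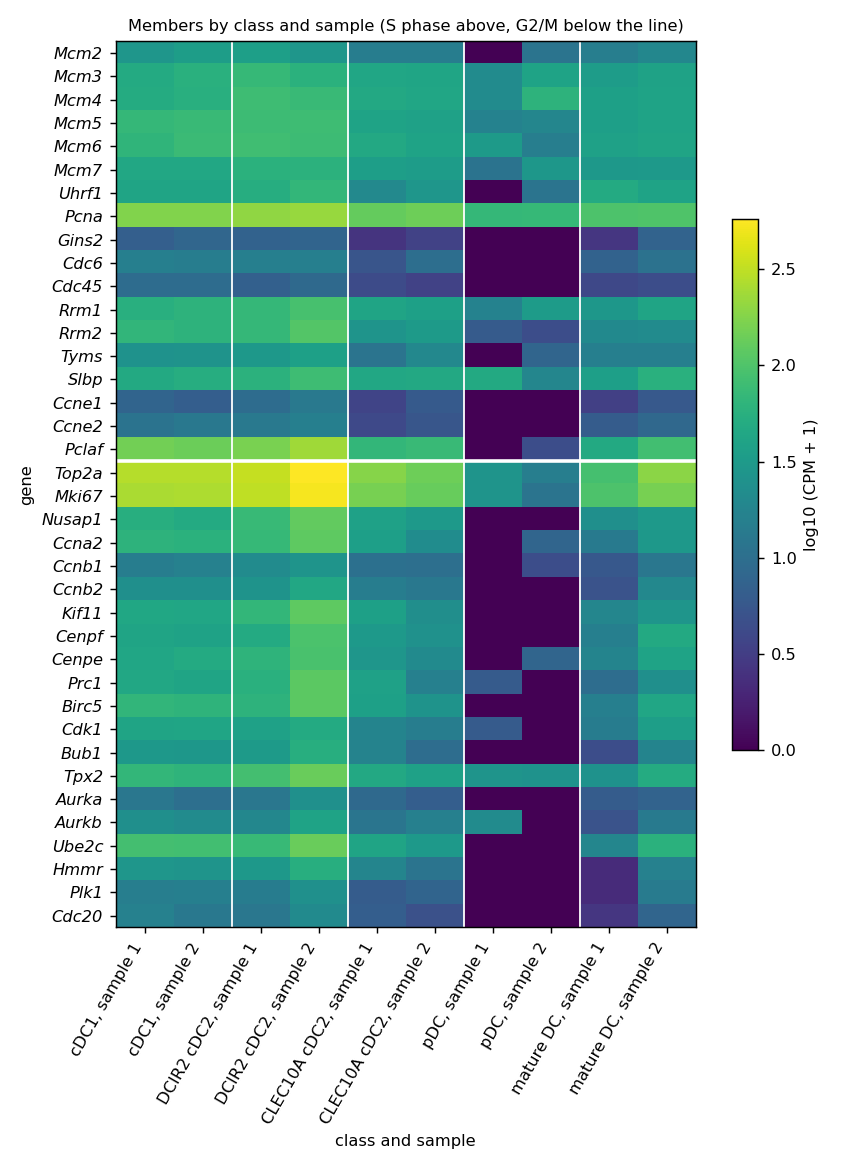
Level of each of the 38 members (rows, S phase above G2/M) in each sample of the 5 DC classes (columns), coloured by log10 of CPM plus 1. The pDC columns are the darkest (lowest), and the G2/M rows are brightest (highest) in DCIR2 cDC2s of sample 2, where Top2a reached 579 CPM.

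How far DCIR2 cDC2s and cDC1s, the 2 DC classes with the most cell cycle RNA, differed depended on which cells were counted. By edgeR's quasi-likelihood test with Benjamini-Hochberg adjustment over all 12374 genes, 1 of 18 S phase and 4 of 20 G2/M members were higher in DCIR2 cDC2s and 0 were lower, in a comparison where 19.4% of all genes tested were higher and 20.3% lower. Both shares of members were near or below the background. Mcm4 rose by 0.40 on the log2 scale (SE 0.13, adjusted p = 0.022). Of the G2/M genes, Kif11 rose by 0.93 (SE 0.23, adjusted p = 0.0052), Nusap1 by 0.80 (SE 0.20, adjusted p = 0.0058) and Tpx2, which nucleates spindle microtubules, by 0.61 (SE 0.20, adjusted p = 0.026). The last called member was Cenpe, a kinetochore motor, with adjusted p = 0.046. The median log2 difference was 0.18 over the S phase and 0.49 over the G2/M members, beside 0.00 over all genes. These calls rested on DCIR2 cDC2s of sample 2, without which 0 S phase and 0 G2/M members were called and the G2/M median was 0.01, and leaving out those of sample 1 instead gave 3 and 10. Without cDC1s of sample 1 the counts were 0 and 2, and without those of sample 2, 0 and 1. With the sample as a block, 1 S phase and 7 G2/M members were called, with cells of 1 gate 7 and 10, with gates raised by 1 UMI 5 and 12, and with the study's limits on cells 13 and 19.

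CLEC10A cDC2s had less of nearly every member than cDC1s. Lower levels passed the test for 15 of 18 S phase and 15 of 20 G2/M members, and 0 were higher, where 18.9% of all genes tested were lower and 18.6% higher. The S phase genes with the largest differences were Gins2 (log2 difference -1.77, SE 0.44, adjusted p = 0.0061), Ccne2, the cyclin that starts S phase (-1.67, SE 0.30, adjusted p = 0.00058), and Cdc45 (-1.64, SE 0.32, adjusted p = 0.0013). Those of G2/M were Cdc20 (-1.59, SE 0.38, adjusted p = 0.0047), Cdk1 (-1.54, SE 0.25, adjusted p = 0.00020) and Plk1, the polo-like kinase of mitosis (-1.37, SE 0.43, adjusted p = 0.023). Mcm4, Slbp, Ccne1, Kif11, Cenpf, Prc1, Aurka and Aurkb did not pass, with log2 differences from -0.86 to -0.25. The median log2 difference was -0.91 over S phase and -0.96 over G2/M members. After the study's limits on cells as rebuilt here, which took out many cDC1s as described below, 5 S phase and 1 G2/M members were called and the G2/M median was -0.19. Without CLEC10A cDC2s of sample 2, 5 G2/M members were called, and without cDC1s of sample 1, 9.

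Between the 2 cDC2 classes the separation was clearer. In CLEC10A cDC2s 17 of 18 S phase members, all but Slbp, and 19 of 20 G2/M members, all but Aurkb, were lower than in DCIR2 cDC2s, and 0 were higher, while 4.36% of all genes tested were lower and 6.04% higher. The S phase genes with the largest log2 differences were Ccne2 (-1.77, SE 0.31, adjusted p = 0.0026), Gins2 (-1.61, SE 0.46, adjusted p = 0.042) and Rrm2 (-1.54, SE 0.18, adjusted p = 0.00013). The G2/M genes were Bub1, a spindle checkpoint kinase (-1.69, SE 0.35, adjusted p = 0.0081), Ccna2, the cyclin of S phase and G2 (-1.66, SE 0.27, adjusted p = 0.0016), and Cdc20 (-1.64, SE 0.39, adjusted p = 0.017). The medians were -1.11 for S phase and -1.48 for G2/M. After the study's limits, 16 and 18 members were called. Leaving out sample 2 of either class reduced the G2/M count to 8, and without CLEC10A cDC2s of sample 1 the S phase count was 11.

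The pDCs, 34 cells in all, held few cell cycle UMIs. Of these cells, 10 of 14 and 13 of 20 also met another gate. Their 476280 UMIs included 134 of S phase and 40 of G2/M members. Of the S phase members 5 had 0 UMIs and 5 had 1 to 3, and of the G2/M members 11 had 0 and 5 had 1 to 3. A count of 3 over the class, the limit that 0 allows, corresponds to 6.30 CPM. Against this limit Ube2c was at least 13.4-fold lower in pDCs than in cDC1s, Birc5, the passenger complex subunit survivin, at least 10.2-fold, Nusap1 at least 7.99-fold, Cdc6 at least 2.25-fold, Ccne2 at least 1.74-fold and Cdc45 at least 1.34-fold. With 9 UMIs, Top2a was 15.0-fold lower (95% interval 7.87 to 32.7, counting error only, as for the other intervals). Mki67, with 8 UMIs, was 15.5-fold lower (7.85 to 35.8). Pcna, with 33 UMIs, was 2.48-fold lower (1.77 to 3.61), and Mcm4, with 21 UMIs, 1.16-fold (0.76 to 1.89), an interval that includes 1. The test called 13 S phase and 12 G2/M members lower and 0 higher, beside 12.7% of all genes lower and 10.1% higher. The median log2 ratio of pooled CPM, with members at 0 set to their bound, was -1.18 for S phase and -2.79 for G2/M. For 1 S phase member cDC1s were at or under the limit too, so its bound says nothing. In the fit, a different measure, the medians were -2.71 and -9.24, beside -0.16 over all genes. The fitted G2/M median is not a usable fold, since 11 of 20 members had 0 UMIs. Without pDCs of sample 1 the counts were 6 and 4, and without those of sample 2, 8 and 2. With cells of 1 gate they were 5 and 7.

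Mature DCs were lower than cDC1s in 12 S phase and 14 G2/M members and higher in 0, where 23.2% of all genes tested were lower and 23.8% higher. The largest S phase differences on the log2 scale were those of Rrm2 (-1.69, SE 0.23, adjusted p = 3.6e-05), Cdc45 (-1.39, SE 0.40, adjusted p = 0.012) and Pclaf (-1.15, SE 0.22, adjusted p = 0.00057). The largest of G2/M were those of Hmmr, a spindle and hyaluronan-binding protein (-1.58, SE 0.52, adjusted p = 0.023), Cdc20 (-1.54, SE 0.48, adjusted p = 0.018) and Ccna2 (-1.49, SE 0.35, adjusted p = 0.0027). Uhrf1 differed by 0.06 (95% interval -0.38 to 0.51) and Slbp by -0.13 (-0.58 to 0.32). The medians were -0.77 for S phase and -0.99 for G2/M. Without mature DCs of sample 1, 6 S phase and 2 G2/M members were called, without cDC1s of sample 1, 9 G2/M members, and after the study's limits 4 of each were lower and 1 S phase member was higher. These comparisons share the cDC1 samples and are not independent of each other.

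**Figure D3:**
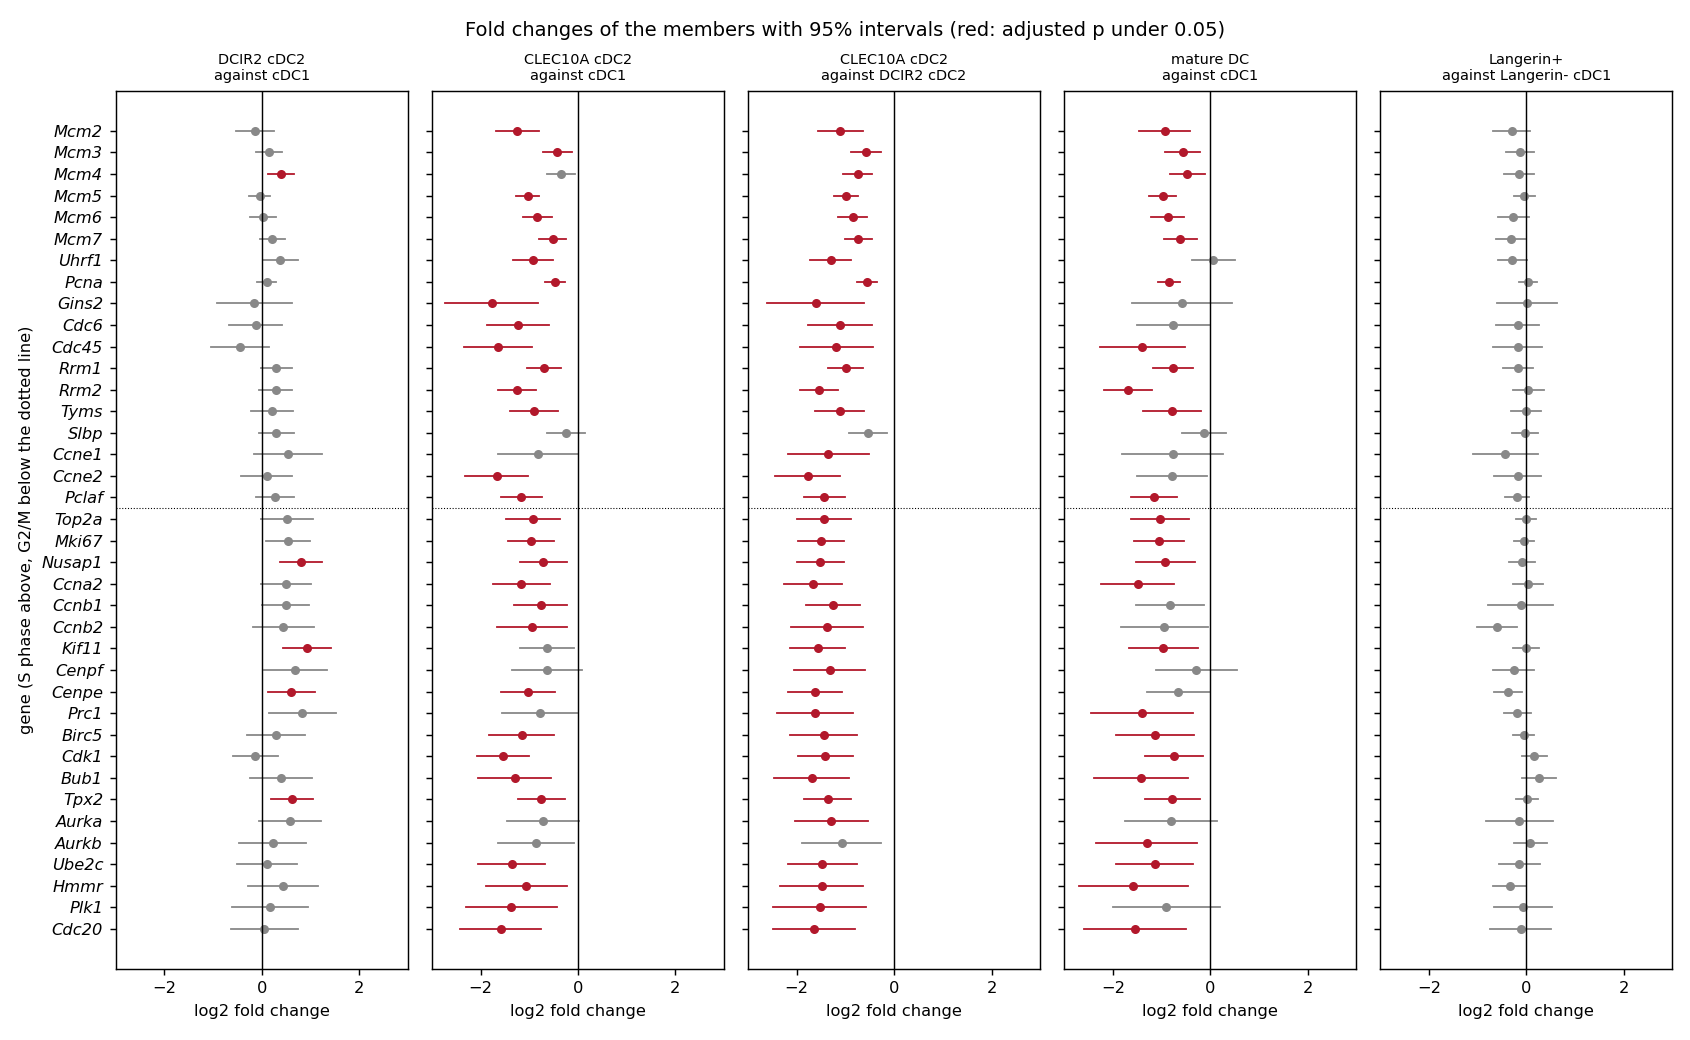
Log2 difference of each member (rows, S phase above and G2/M below the dotted line) with its 95% interval as a bar, in 5 comparisons (panels) and red where the adjusted p was under 0.05; pDCs are left out, since many of their members had 0 UMIs. CLEC10A cDC2s lie to the left of 0 for all 38 members against both other cDC classes, with medians from -1.48 to -0.91.

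Cell cycle RNA was concentrated in a minority of cells. The 5% of cells with the most G2/M UMIs held 71.8% and 71.3% of them in cDC1s, 78.9% and 63.1% in DCIR2 cDC2s and 90.4% and 86.1% in CLEC10A cDC2s. To compare shares of cells across depths, every cell was thinned to 5000 UMIs, and cells with at least 5 UMIs of a list were counted, a range and not a cell type. Thinning left out 30 and 16 cDC1s, 3 and 4 DCIR2 cDC2s, and 16 and 12 CLEC10A cDC2s. Cells past the G2/M cutoff were 11.6% (95% exact binomial interval 9.42 to 14.1) and 12.1% (9.77 to 14.8) of cDC1s, 9.43% (7.14 to 12.2) and 15.4% (12.2 to 18.99) of DCIR2 cDC2s, and 3.77% (2.25 to 5.89) and 5.94% (3.84 to 8.71) of CLEC10A cDC2s. They were 5.15% and 4.62% of mature DCs, and 0 of 13 and 0 of 20 pDCs, whose intervals reach 24.7% and 16.8%. Macrophages, a class with little cell cycle RNA, had 0.86% and 2.52% at median depths of 19570.5 and 19416 UMIs. Unthinned shares were 22.3% and 24.4% of cDC1s, 18.4% and 23.0% of DCIR2 cDC2s, and 7.89% and 9.86% of CLEC10A cDC2s. The shares of CLEC10A cDC2s were below those of cDC1s and DCIR2 cDC2s in both samples, whereas cDC1s and DCIR2 cDC2s changed places between samples.

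For the S phase list, cells past the cutoff were 16.4% and 21.2% of cDC1s, 18.3% and 20.3% of DCIR2 cDC2s, 10.04% and 8.91% of CLEC10A cDC2s, 12.5% and 11.0% of mature DCs, and 0 of 13 and 1 of 20 pDCs. Macrophages had 1.43% and 3.14%. More cells lay near this cutoff, with 39 and 38 cDC1s at 4 or 5 S phase UMIs against 10 and 16 at 4 or 5 G2/M UMIs. Cells past the G2/M cutoff held a median of 29 and 29.5 G2/M UMIs of 5000 in cDC1s, 37 and 49 in DCIR2 cDC2s and, in 18 and 24 cells, 54 and 11 in CLEC10A cDC2s, whereas the other cells of these classes averaged 0.39 to 0.67. Of cells past the G2/M cutoff, 69.7% and 77.4% of cDC1s, 73.6% and 83.1% of DCIR2 cDC2s and 88.9% and 62.5% of CLEC10A cDC2s were also past the S phase cutoff. In the other direction, 49.2% and 44.2%, 37.9% and 62.8%, and 33.3% and 41.7% of cells past the S phase cutoff were past that of G2/M.

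**Figure D4:**
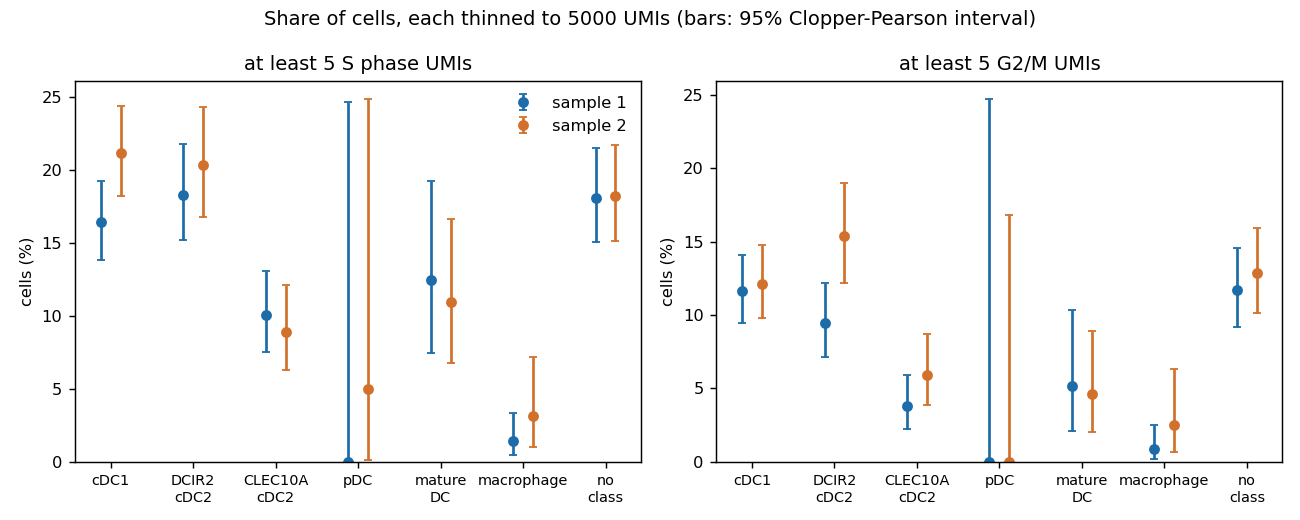
Percent of cells (y axis) with at least 5 S phase or G2/M UMIs after thinning to 5000 UMIs, by class (x axis, with macrophages and cells of no class) and sample (colour), with 95% exact binomial intervals as bars. CLEC10A cDC2s lie at 3.77% and 5.94% for G2/M, below cDC1s and DCIR2 cDC2s.

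Cells rich in G2/M RNA also held more RNA in total. Median UMIs per cell were 29160 and 30753 in cDC1s past the G2/M cutoff but 19278 and 21299 in cDC1s with 0 G2/M UMIs after thinning. The same medians were 19549 and 18460 against 11489 and 11588 in DCIR2 cDC2s, and 19590.5 and 14311.5 against 10652 and 10466 in CLEC10A cDC2s. The study's limits were rebuilt here from its methods on the mitochondrial share, the genes and the UMIs per cell. The paper names the number of mitochondrial genes and states no scaling of the median absolute deviation. A scaled deviation was used here, so the limits it applied may differ. As rebuilt, they would take out 113 and 140 cDC1s (14.2% and 19.7%), of which 71 and 94 were above an upper limit on genes or UMIs. The cDC1s taken out had median UMIs of 36732 and 36913 and held 59.9% and 62.0% of the G2/M UMIs of cDC1s. Among cDC1s that passed the limits, G2/M members summed to 624 and 635 CPM, and 7.81% and 8.54% of cells were past the thinned cutoff, against 36.6% and 27.3% of those taken out. Only 9 and 10 DCIR2 cDC2s were taken out. Cells that met more than 1 gate were 6.58% and 7.89% of the cDC1s kept and 7.96% and 6.43% of those taken out. The part of doublets in these values was not tested. Among cDC1s, 18.9% and 14.8% of cells that met further gates were past the thinned G2/M cutoff, against 11.1% and 11.9% of those that met 1 gate. Among DCIR2 cDC2s, cells that met further gates were past the G2/M cutoff in 7.62% and 7.59% of cases, against 10.5% and 19.4% of those that met 1 gate.

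The members differed in their level in cells with 0 UMIs of the other list. Over the 5 DC classes together and without thinning, 882 and 761 cells held 0 G2/M UMIs (median 11308.5 and 11297 UMIs per cell) and 197 and 210 held at least 10 (median 23839 and 25179). In cells without G2/M UMIs, Slbp stood at 26.6% of its level in the cells with at least 10, Pcna at 18.2%, and Mcm4 at 16.3%. Pcna had 91.2 and 86.5 CPM in the former cells and 501 and 473 CPM in the latter. In contrast, Rrm2 stood at 0.24% and Pclaf at 0.23%, the latter with 2.28 and 1.17 CPM against 767 and 751 CPM. The other S phase members ranged from 1.51% (Cdc6) to 14.9% (Mcm3). A cell with 0 UMIs may still hold such RNA, and the share of these levels that free RNA gives was not estimated. The groups also differed in class, since 38.6% and 37.0% of cDC1s but 55.5% and 52.2% of CLEC10A cDC2s held 0 G2/M UMIs. The part of class in these levels was not tested.

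For the G2/M members, the 257 and 234 cells with 0 S phase UMIs (median 9396 and 8865 UMIs) were set against 332 and 373 cells with at least 10 (median 20646 and 22593). Tpx2 stood at 8.72% and Aurka, a spindle pole kinase, at 8.30% of their levels in the latter, Aurkb, the kinase of the passenger complex, at 4.04%, and Mki67 at 2.92%, with 24.03 and 24.96 CPM against 833 and 846 CPM. The other 16 ranged from 0.44% (Plk1) to 2.45%. The groups differed in depth and were not matched for class, and shallow cells have more zeros, so the percentages are descriptions of these cells.

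**Figure D5:**
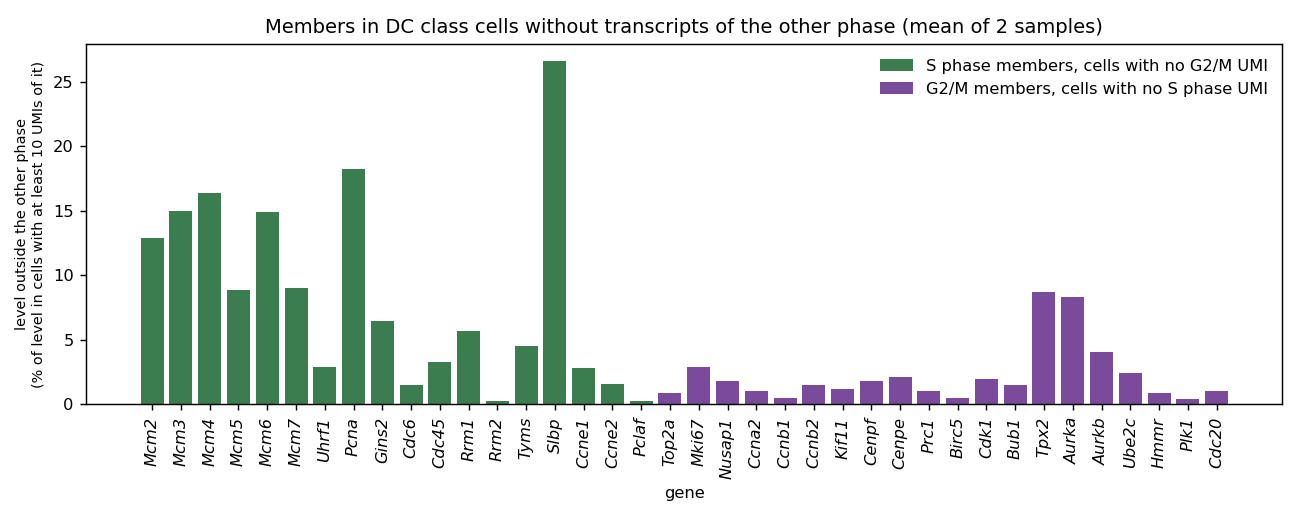
Bars give the level of each member (x axis) in cells of the 5 DC classes without UMIs of the other list, as a percent of its level in cells with at least 10 such UMIs (y axis, unthinned), as the mean of the 2 samples. Slbp (26.6%) and Pcna (18.2%) lie at the high end of the S phase members and Rrm2 (0.24%) and Pclaf (0.23%) at the low end.

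The study sets Langerin+ cDC1s apart by a cutoff on Cd207 expression, and cDC1s with at least 1 UMI of Cd207 stand for them here. In the 137 and 154 Langerin+ cDC1s, S phase members summed to 848 and 809 CPM and G2/M members to 1150 and 1130 CPM. In the 660 and 556 Langerin- cDC1s the sums were 914 and 977 CPM and 1258 and 1249 CPM. Past the thinned G2/M cutoff were 12.5% (7.45 to 19.3) and 10.5% (6.14 to 16.5) of Langerin+ cells and 11.4% and 12.5% of Langerin- cells. No member was called by edgeR's quasi-likelihood test (0 of 18 and 0 of 20, with 1 and 2 at an unadjusted p under 0.05) or by DESeq2 (0 and 0), where 0.423% of 11595 genes tested were higher and 0.362% lower. The smallest adjusted p was 0.40 for S phase (Mcm7) and 0.24 for G2/M (Ccnb2, log2 difference -0.60, SE 0.18). Top2a differed by -0.01 (-0.22 to 0.20) and Pcna by 0.04 (-0.14 to 0.23). The median log2 difference was -0.17 over S phase and -0.07 over G2/M members. After the study's limits 4 G2/M members were lower in Langerin+ cells and the G2/M median was -0.89, with 20 of 20 below 0. With at least 2 Cd207 UMIs 0 members were called, the G2/M median was -0.44, with 18 of 20 below 0, and the S phase median was 0.09. Langerin+ cells had more UMIs, with medians of 23588 and 26746 against 19206.5 and 20588, and the part of depth in this split was not tested.

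Genes listed for entry into the cycle, apart from the members, moved both ways against cDC1s. The shares of all genes tested that were higher and lower are those given with each comparison above, 19.4% and 20.3% for DCIR2 cDC2s, 18.6% and 18.9% for CLEC10A cDC2s, 10.1% and 12.7% for pDCs and 23.8% and 23.2% for mature DCs. Of 13 tested genes of G1 entry, 5 were higher and 2 lower in DCIR2 cDC2s than in cDC1s, 4 and 3 in CLEC10A cDC2s, 2 and 3 in pDCs, and 5 and 6 in mature DCs. Ccnd2, a D-type cyclin, was at 13.7 and 14.8 CPM in cDC1s, 113 and 117 CPM in DCIR2 cDC2s, 135 and 98.0 CPM in CLEC10A cDC2s and 266 and 265 CPM in mature DCs. Its log2 differences from cDC1s were 2.84 (SE 0.15, adjusted p = 1.7e-09), 2.92 (SE 0.15, adjusted p = 1.9e-09) and 4.18 (SE 0.16, adjusted p = 5.6e-11). Ccnd1, another D-type cyclin, was at 268 and 320 CPM in cDC1s, 1454 and 1344 CPM in DCIR2 cDC2s, and 1019 and 1088 CPM in pDCs, which had the fewest member UMIs. Its log2 difference from cDC1s was 2.08 in DCIR2 cDC2s (SE 0.12, adjusted p = 4.3e-09) and 1.55 in pDCs (SE 0.14, adjusted p = 1.7e-06). E2f2, an E2F activator, was 2.04 higher in DCIR2 cDC2s (SE 0.14, adjusted p = 3.8e-08). Myc, which drives growth, was at 24.4 and 20.1 CPM in cDC1s and 5.89 and 4.85 CPM in mature DCs, a log2 difference of -2.10 (SE 0.27, adjusted p = 1.6e-05). Between the cDC2 classes 0 were higher and 5 lower in CLEC10A cDC2s, beside 6.04% and 4.36% of all genes. Among the 5 were Ccnd1 (-0.77) and, with larger differences, E2f7 (-1.59) and E2f8 (-1.02). The latter genes encode E2F repressors and not drivers of entry, although the list holds them. In Langerin+ cDC1s 1 of 13 was lower, Cdk6, the partner of D-type cyclins (-0.76, SE 0.13, adjusted p = 0.037). Of all genes tested there, 0.362% were lower and 0.423% higher.

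Of 14 tested brakes on the cycle, 7 were higher and 2 lower in DCIR2 cDC2s, 5 and 1 in CLEC10A cDC2s, 0 and 3 in pDCs, and 8 and 4 in mature DCs, each against cDC1s and beside the same shares of all genes. Cdkn1a, the p21 inhibitor of cyclin-dependent kinases, was at 20.9 and 20.6 CPM in cDC1s, 10.03 and 10.5 CPM in DCIR2 cDC2s, 26.1 and 34.7 CPM in CLEC10A cDC2s and 110 and 162 CPM in mature DCs. It was 2.69 higher on the log2 scale in mature DCs than in cDC1s (SE 0.21, adjusted p = 1.2e-07) and 1.62 higher in CLEC10A than in DCIR2 cDC2s (SE 0.26, adjusted p = 0.0013). Between the cDC2 classes 1 of 14 brakes was higher and 1 lower in CLEC10A cDC2s, beside 6.04% and 4.36% of all genes. The log2 differences of the brakes there ranged from -1.98 to 1.62. Cdkn2b, an inhibitor of CDK4 and CDK6, had 101 UMIs in mature DCs and 3 in cDC1s, a ratio of levels of 279 (95% interval 92.9 to 1378). Its neighbour Cdkn2a had 43 and 3 UMIs, a ratio of 119 (38.1 to 599). The counts of these genes pool the samples, so their intervals cover counting error only and not the spread between samples. Cdkn2a and Cdkn2b were at no more than 1.36 CPM in either sample of the cDC2 classes. Rb1, the retinoblastoma protein that holds E2F, was at 74.1 and 75.0 CPM in cDC1s and 202 and 229 CPM in DCIR2 cDC2s, a log2 difference of 1.36 (SE 0.13, adjusted p = 7.0e-07). The brakes ranged from -1.19 to 2.84 in this comparison. Between Langerin+ and Langerin- cDC1s 0 of 12 tested brakes were called, where only 0.423% of all genes tested were higher and 0.362% lower.

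Replication and mitosis genes outside the 38 moved in the direction of the members in CLEC10A cDC2s. Of 20 other replication genes 12 were lower and 0 higher than in cDC1s, and 12 were lower and 0 higher than in DCIR2 cDC2s. Of 31 other mitosis genes the counts were 18 lower and 2 higher, and 23 lower and 0 higher. Of all genes tested, 18.9% were lower and 18.6% higher than in cDC1s, and 4.36% lower and 6.04% higher than in DCIR2 cDC2s. Lig1, the ligase that joins Okazaki fragments, was at 22.5 and 28.4 CPM in CLEC10A cDC2s, 59.7 and 55.3 CPM in cDC1s and 50.3 and 58.0 CPM in DCIR2 cDC2s. Kif23, a motor of cytokinesis, was at 47.4 and 34.3 CPM, 108.9 and 101.5 CPM, and 84.6 and 120 CPM in the same classes. In mature DCs 10 replication genes were lower than in cDC1s and 2 higher, and 18 mitosis genes were lower and 1 higher, Espl1, which encodes separase, at 38.3 and 42.4 CPM against 12.4 and 10.1 CPM. DCIR2 cDC2s had 3 replication genes higher and 1 lower, and 6 mitosis genes higher and 1 lower, than cDC1s, and pDCs 6 and 12 lower and 0 higher. Of all genes tested, 23.2% were lower and 23.8% higher in mature DCs, 20.3% and 19.4% in DCIR2 cDC2s, and 12.7% and 10.1% in pDCs. The shares called in DCIR2 cDC2s were near or below these backgrounds. In Langerin+ cDC1s 0 of 20 and 0 of 31 were called, beside 0.423% of all genes tested higher and 0.362% lower.

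Among genes in none of these lists, Topbp1, which acts in replication initiation and its checkpoint, had the pattern over the 10 samples of the DC classes most like that of the summed S phase members (Pearson r of log2 CPM 0.99, among 7846 genes of at least 20 CPM in 1 class). Hmgb2 followed (0.98), then Cdca3, Rangap1 and Mxd3 (0.97 each). For the summed G2/M members the closest were Gm10282, Cdca3, Sgo2a, a guardian of centromere cohesion, and Iqgap3 (0.99 each), and Spag7 (0.98). The 10 values come from 2 samples and include the very low pDC sums, so these correlations describe likeness only.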

How the data were processed

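The 2 wild-type samples were measured by whole-transcriptome single-cell sequencing. The authors deposited RSEC-corrected UMI counts per gene and cell from the BD Rhapsody pipeline (GRCm38, GENCODE vM19, intronic reads counted), which are raw counts with no normalization. No filter on cells was applied and no doublet caller was run; cells of more than 1 gate were left out as an alternative. Counts were summed per sample and class, the 14 gating genes were removed, and the 10 sums of 5 DC classes were fitted together in edgeR 4.0.16 (R 4.3.3; filterByExpr, TMM, quasi-likelihood test; p-values adjusted across the whole table by Benjamini-Hochberg, threshold 0.05), with DESeq2 1.42.0 as an alternative. Langerin+ and Langerin- cDC1s had a fit of their own. The fits were tested on simulated data. Intervals of shares are Clopper-Pearson and cover counting error only. Same-numbered sums come from the same sample, which pairs them; their deviations correlated at 0.01 to 0.17. Replicates differed beyond sampling noise (chi-square per degree of freedom 2.47 to 4.93). All members could be named; the statistics are given for the 3 called members of each list with the largest log2 difference, and at most 3 called genes of the other lists. Members and lists were chosen with earlier results of these data known.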

Additional observations from a re-analysis of the deposited data

Results flagged for a closer look

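Cells that met no gate enter no comparison, yet they carried cell cycle RNA. They held 18.9% of the S phase and 21.2% of the G2/M UMIs of sample 1, and 16.8% and 18.2% of those of sample 2, which is a signal in cells that no comparison used. Their summed levels were 1040 and 998 CPM for S phase and 1498 and 1489 CPM for G2/M, and 11.7% and 12.8% of them were past the thinned G2/M cutoff. Of these 67 and 71 cells, 98.5% and 97.2% had a UMI of Wdfy4, 85.1% and 77.5% of Sirpa and 64.2% and 63.4% of Dtx1. Of the cDC1 markers, Batf3 was found in 53.7% and 50.7%, Naaa in 35.8% and 38.03% and Irf8 in 31.3% and 19.7%. Cadm1 was found in 19.4% and 11.3%, Tlr3 in 11.9% and 7.04% and Itgae in 2.99% and 5.63%. Of the CLEC10A cDC2 markers, Lyz2 was found in 17.9% and 21.1% and Clec12a in 10.4% and 21.1%. Ccr2 was found in 10.4% and 12.7% and Mgl2 in 1.49% and 2.82%. Ms4a6c of the monocyte list was found in 91.04% and 92.96%. The class of these cells was not tested. Erythroid markers were also higher in them, with Hbb-bs at 43.0 and 589 CPM against 5.13 and 6.10 CPM in cells of no class below the cutoff, and Hba-a1 at 252 and 671 CPM against 8.29 and 4.33 CPM. Hbb-bs was found in 6 and 8 and Hba-a1 in 4 and 5 of these cells, and their part in the values was not tested. In the cells of no class below the cutoff, the shares were 90.9% and 90.5% for Wdfy4, 80.9% and 82.8% for Sirpa and 48.7% and 51.0% for Dtx1. They were 39.6% and 45.02% for Batf3, 31.6% and 29.5% for Naaa, 30.97% and 28.01% for Irf8 and 25.2% and 19.3% for Cadm1. Tlr3 had 7.3% and 3.94%, Itgae 3.16% and 6.85%, Lyz2 28.01% and 24.9% and Clec12a 28.2% and 25.9%. Ccr2 had 12.4% and 14.7%, Mgl2 2.17% and 2.28% and Ms4a6c 82.6% and 86.9%. Cd4 was found in 41.8% and 46.5% of cells past the cutoff and 56.6% and 58.5% below it. Esam was found in 28.4% and 25.4% against 21.1% and 22.8%, and Irf4 in 29.9% and 45.1% against 35.1% and 39.2%. By level, Sirpa was at 188 and 225 CPM past the cutoff and 330 and 328 CPM below it. Wdfy4 was at 678 and 502 CPM against 867 and 721 CPM, and Dtx1 at 231 and 240 CPM against 245 and 237 CPM. Median depth before thinning was 7742.5 and 8647 UMIs over all cells of no class, below that of the gated DC classes. In those past the G2/M cutoff it was 12146 and 12763 UMIs. Past the same cutoff it was 19549 and 18460 in DCIR2 cDC2s and 19590.5 and 14311.5 in CLEC10A cDC2s. The part of depth in the missing of the gates was not tested.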

How the results depend on the processing

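Of 364 alternative values for 28 pairs of a named member and a comparison, 0 reversed, 69 no longer passed, and 34 with a whole sample left out, which allows no test, moved by more than their SE. Of 132 counts of called members under alternatives, 85 stayed within 1.5 times the reported count and 47 did not, and the cause was not tested. Counts are given as S phase then G2/M. For DCIR2 cDC2s against cDC1s (1 and 4) they were 7 and 10 with cells of 1 gate, 0 for S phase with thinned cells, 13 and 19 with the study's limits, 5 and 12 with gates raised by 1 UMI, 0 and 9 with no filter on low counts, and, for G2/M, 2 by DESeq2 and 7 with the sample as a replicate block. For CLEC10A cDC2s against cDC1s (15 and 15) they were 5 and 1 with the study's limits, and 7 for G2/M by DESeq2. For CLEC10A against DCIR2 cDC2s (17 and 19), S phase gave 11 with thinned cells. For pDCs (13 and 12) they were 5 and 7 with cells of 1 gate, 5 for S phase with thinned cells, 6 with the study's limits and 8 with raised gates, and 20 for G2/M with no filter on low counts. For mature DCs (12 and 14) they were 4 and 4 lower with the study's limits, 6 for S phase with thinned cells and 7 for G2/M by DESeq2. For Langerin+ cDC1s (0 and 0), G2/M gave 4 with the study's limits and 1 with no filter on low counts. The replicate block moved no other count by more than 1.5 times.

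Leaving out each sum in turn was added after seeing the data, and the lone remaining sum is then assumed to vary like the others. The ranges were 0 to 3 and 0 to 10 for DCIR2 cDC2s against cDC1s, 11 to 15 and 5 to 13 for CLEC10A cDC2s against cDC1s, 11 to 13 and 8 to 20 for CLEC10A against DCIR2 cDC2s, 6 to 14 and 2 to 13 for pDCs, and 6 to 11 and 2 to 18 for mature DCs. Leaving out a whole sample keeps no residual degrees of freedom and gave no test.

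Mean shares of cells past the cutoff moved with its definition. For S phase, in cDC1s, DCIR2 cDC2s and CLEC10A cDC2s, they were 18.8%, 19.3% and 9.48% as reported, 13.8%, 14.2% and 5.84% at 3000 UMIs, 23.1%, 29.0% and 17.1% at 8000, 43.8%, 38.8% and 25.4% without thinning, 27.7%, 31.0% and 22.0% at 3 UMIs, and 11.6%, 12.9% and 4.80% at 10. The S phase share was 15.4% of cDC1s with the study's limits, 22.7% of DCIR2 cDC2s with cells of 1 gate, and 20.9% of DCIR2 and 8.35% of CLEC10A cDC2s with raised gates. For G2/M they were 11.9%, 12.4% and 4.85% as reported, 23.4%, 20.7% and 8.87% without thinning and 15.2%, 17.7% and 7.28% at 3 UMIs. In cDC1s G2/M gave 10.5% at 3000 UMIs, 14.8% at 8000, 9.998% at 10 UMIs, 8.17% with the study's limits and 11.5% with cells of 1 gate, and in CLEC10A cDC2s 6.97% at 8000 and 3.30% at 10 UMIs.

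Each class rests on 2 samples, pDCs on 34 cells, and cDC1s held more UMIs per cell than the other DC classes; whether this is depth or RNA content was not tested.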

Other observations

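Lymphocyte classes of the same enrichment also held cell cycle RNA, with wide spread between samples. The S phase members summed to 415 and 1026 CPM in B cells, 598 and 1213 CPM in T cells and 1663 and 734 CPM in NK cells of samples 1 and 2. The G2/M members summed to 942 and 775 CPM in B cells, 64.2 and 1079 CPM in T cells and 654 and 156 CPM in NK cells. A single cell held 51.8% of the G2/M UMIs of NK cells of sample 1, and 30.6% and 32.4% of those of B cells. Macrophages were at 252 and 470 CPM for S phase and 56.4 and 348 CPM for G2/M, and 1 cell held 47.3% of the latter in sample 2.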
